A study of Arabidopsis thaliana with 12 samples.

Results

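The comparison described here set the Arabidopsis thaliana double mutant dxo1-2 xrn3-8, with 3 libraries, against the wild type Col-0, with 3 libraries, and so used 6 of the 12 libraries of the series as the groups compared. The libraries were chosen by the genotype given in the labels, and every gene row of the count files entered, 37184 in all, of which 21974 had enough reads to be tested. The single mutants dxo1-2 and xrn3-8, again with 3 libraries each, stayed in the fit to share the estimate of the spread and to show where the double mutant differed from either of them. All genotypes were sampled as seedlings of 21 days that had grown on soil in cycles of 16 h of light and 8 h of dark, after 2 days of cold stratification at 4 °C. Total RNA of whole plants was extracted with Trizol, and a kit for plant leaves was used to deplete ribosomal RNA and to build stranded libraries. The series' design text describes the replicates as biological and says that growth, extraction, library preparation and sequencing ran in parallel for all genotypes. The Col-0 and single mutant libraries had been part of earlier series. The labels do not say at which hour plants were collected, how many plants went into a library, or what lesion each allele carries. In RNA of whole plants, fewer cells of a type and less RNA per cell cannot be told apart.

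DXO1 is the plant member of the DXO family, whose enzymes recognise unusual 5′ ends of RNA, such as incomplete caps and caps made of NAD. XRN3 is one of the nuclear exoribonucleases of plants. It degrades RNA from the 5′ end, takes part in the maturation of ribosomal RNA precursors, and removes the RNA that RNA polymerase II goes on making past the end of a gene. Plants without DXO1 are known to be pale and small, and plants with little XRN3 are known to keep readthrough RNA downstream of genes.

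The libraries held 63073032 to 72688919 gene counts in Col-0 and 65631310 to 74029395 in the double mutant. Levels are given below as CPM, counts relative to a library size scaled by TMM (CPM as edgeR defines it), which sets the bulk of genes equal between libraries. The TMM factors were 0.863 to 0.892 in Col-0 and 1.13 to 1.17 in the double mutant. Across genes, the log2 CPM of the 2 genotypes correlated at 0.942 to 0.954, and replicates of 1 genotype at 0.984 to 0.988. Reads assigned to no gene took 8.65 to 9.04% of a Col-0 file and 6.99 to 10.8% of a double mutant file, so that these ranges overlapped.

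The mutated genes were examined first. DXO1 (AT4G17620, chromosome 4) stood at 8.63, 8.92 and 8.93 CPM in the Col-0 libraries and at 3.11, 2.97 and 3.13 CPM in the double mutant. All 3 double mutant libraries were below all Col-0 libraries, with a log2 fold change of -1.52 (SE 0.11, adjusted p 1.2e-07 in edgeR's quasi-likelihood test with Benjamini-Hochberg adjustment, as for every adjusted p below). The mean was 1.52 CPM in dxo1-2 and 9.91 CPM in xrn3-8, so the transcript was lower than in xrn3-8 and higher than in dxo1-2 (log2 fold change 1.01, edgeR adjusted p 2.7e-05). XRN3 (AT1G75660, chromosome 1) stood at 51.8, 52.1 and 51.4 CPM in Col-0 and at 38.4, 38.1 and 44.1 CPM in the double mutant. The libraries of the genotypes were again apart, with a smaller log2 difference of -0.37 (SE 0.0748, edgeR adjusted p 0.00116). With means of 59.0 CPM in dxo1-2 and 21.6 CPM in xrn3-8, the XRN3 transcript was also higher than in its single mutant (log2 fold change 0.9, edgeR adjusted p 7.6e-07). Read counts over a whole gene do not show which part of a transcript is present. The counts of each gene were thus below Col-0 in the double mutant, and nearer to Col-0 than in the single mutant that carries the same allele.

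Slightly more genes rose than fell in the double mutant. At an adjusted p under 0.05, edgeR's quasi-likelihood test called 10188 genes, 46.4% of those tested, of which 5357 (24.4%) were higher and 4831 (22%) were lower than in Col-0. The median log2 fold change was 0.72 over the genes called higher and -0.61 over those called lower, and the median over all tested genes was 0.02. Changes of at least 2-fold were seen in 3102 genes (14.1%), 1802 higher (8.2%) and 1300 lower (5.92%). At least 8-fold changes numbered 296 higher and 116 lower. No overlap between Col-0 and double mutant libraries was seen in 12208 genes (55.6%). Against dxo1-2 the double mutant differed in 6997 genes (31.8%), 3599 higher (16.4%) and 3398 lower (15.5%). Against xrn3-8 it differed in 9549 genes (43.5%), 5040 higher (22.9%) and 4509 lower (20.5%). With upper quartile scaling in place of TMM the balance against both single mutants turned, to 3228 higher and 3825 lower than in dxo1-2 and 4330 higher and 5514 lower than in xrn3-8. The counts for gene groups given below are to be read against these shares, unless a limit is given beside them. The gene lists described below hold 545 of the tested genes and so cover a small part of these changes. Among them photosynthesis, jasmonate and morning clock genes were mostly lower, and evening clock, cold response and flavonoid genes mostly higher.

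**Figure D1:**
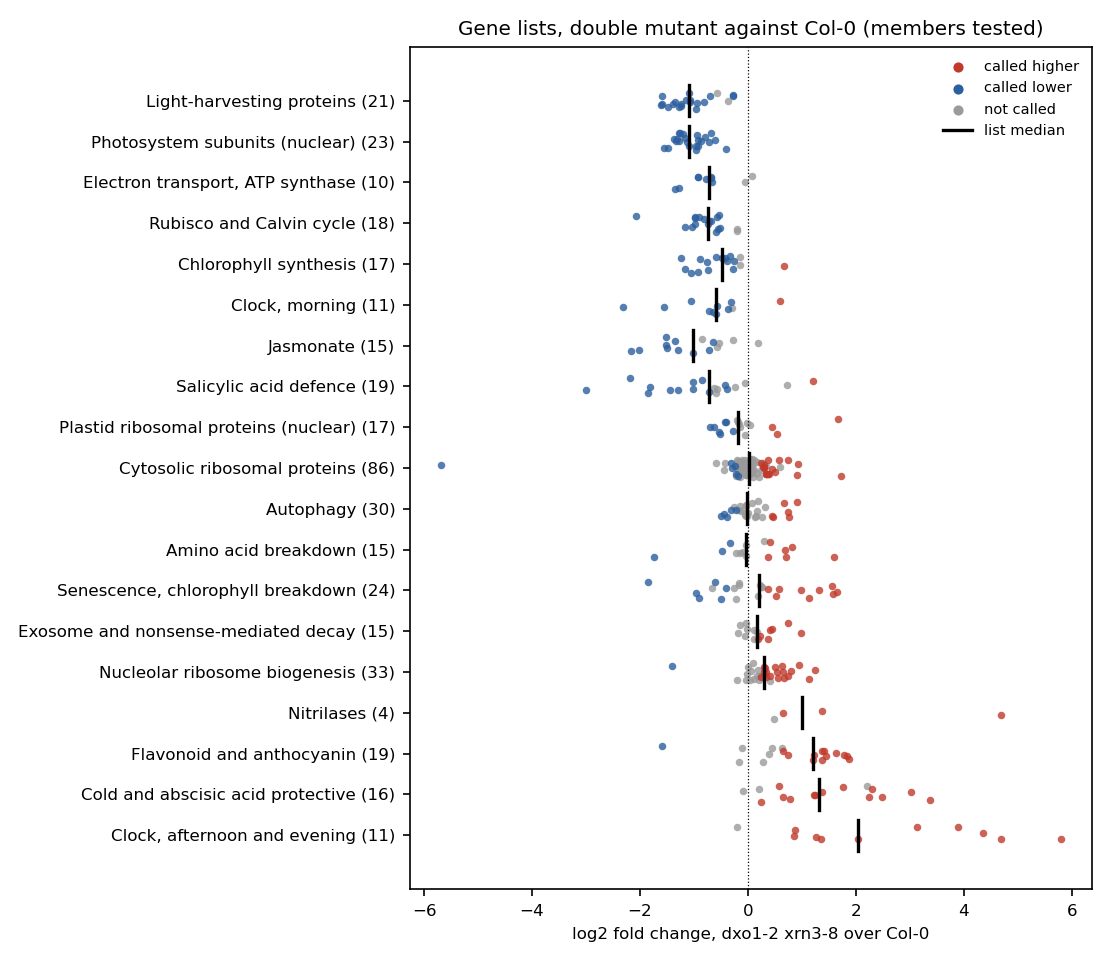
Log2 fold change of the double mutant against Col-0 (horizontal axis) for each tested member of the gene lists (1 row per list), with members called at an adjusted p under 0.05 in colour and the list median as a bar. The light-harvesting and photosystem rows lie wholly below 0, with medians of -1.1 and -1.09, and the afternoon and evening clock row lies furthest above it, with a median of 2.04.

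Among genes that averaged 5 CPM or more and showed no overlap between the genotypes, the 10 that rose most included enzymes of several kinds and 2 light- and cold-responsive clock genes. AT1G70080, annotated as a terpenoid cyclase (chromosome 1, 26394492 to 26397603), was at 0.0655, 0 and 0 CPM in Col-0 and at 10.1, 9.51 and 12.4 CPM in the double mutant. It was practically silent in the wild type and present in every double mutant library, and its 4 reads against 2588 gave a ratio of 479.3 (95% counting interval 187.0 to 1760.5). All 4 Col-0 reads lay in replicate 1, and the fitted log2 fold change of AT1G70080 went from 8.8 to 12.55 without that library, a value set against 0 reads. It was nearly silent in the single mutants too, with means of 0.365 CPM in dxo1-2 and 0.0729 CPM in xrn3-8. DIN2 (AT3G60140), a glycosyl hydrolase known to be induced by darkness and lack of sugar, was at 2.77, 0.367 and 0.747 CPM in Col-0 and at 62.9, 84.9 and 68.9 CPM in the double mutant. The Col-0 libraries were all low but unequal, with log2 fold changes of 5.8 (SE 0.546, edgeR adjusted p 1.3e-06) from all libraries and 7.05 without Col-0 replicate 1. The means of the single mutants, 2.75 CPM in dxo1-2 and 6.74 CPM in xrn3-8, lay far below the double mutant as well. NIT2 (AT3G44300), a nitrilase that turns indole-3-acetonitrile into auxin in vitro, rose from 18.6, 7.1 and 9.12 CPM to 284.4, 277.4 and 336.5 CPM (log2 fold change 4.69, SE 0.375, edgeR adjusted p 2.9e-07). It was at 19.3 CPM in dxo1-2 and 21.1 CPM in xrn3-8 on average, and the double mutant was higher than both at the threshold. NIT2 lies beside close copies, and reads that fit several of them were not counted.

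The others of these 10 were TH8, a thioredoxin (AT1G69880), MRD1 (AT1G53480), the CCT motif gene AT1G07050, COR27, AT4G33980 (COR28), the osmotin gene OSM34 (AT4G11650) and AT1G09500, annotated as an NAD(P)-binding protein. TH8 stood at 2.19, 0.861 and 1.24 CPM in Col-0 and at 35.8, 37.3 and 36.8 CPM in the double mutant, a log2 difference of 4.67 (SE 0.246, edgeR adjusted p 7.9e-09). It differed from the single mutants in the same direction, which had means of 0.766 CPM in dxo1-2 and 11.3 CPM in xrn3-8. MRD1, at 1.01, 0.574 and 0.8 CPM against 18.5, 19.2 and 20.1 CPM, overlaps genes on the opposite strand, and as the strand setting of the counting is not given its reads cannot be assigned with certainty. OSM34 rose from 1.75, 0.734 and 0.747 CPM to 15.7, 16.0 and 27.3 CPM. The gap between Col-0 and double mutant libraries came with the choice, as these genes were picked for no overlap and the largest rise. All 10 were higher than in dxo1-2, and 6 of the 10 were also higher than in xrn3-8. A choice by high double mutant values favours such differences. MRD1, AT1G07050, COR27 and COR28 were the 4 that did not differ from xrn3-8 at the threshold.

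The 10 genes that fell most included 3 neighbours on chromosome 4. AT4G13575 (chromosome 4, 7890249 to 7893761), a gene of no known function, was at 211.4, 236.5 and 200.2 CPM in Col-0 and at 5.64, 5.86 and 4.68 CPM in the double mutant (log2 fold change -5.32, SE 0.195, edgeR adjusted p 3.9e-10). AT4G13577 (7895719 to 7898499) and the late embryogenesis abundant gene UNE15 (AT4G13560, 7879558 to 7883926) lie beside it on the same strand and were among the 10 as well. UNE15 went from 30.7, 36.3 and 36.1 CPM to 1.84, 1.82 and 1.87 CPM, a log2 difference of -4.22 (SE 0.127, edgeR adjusted p 5.6e-11). An annotated gene runs over it on the opposite strand, so its reads are uncertain too. These 3 neighbours were each lower than in both single mutants. The long noncoding RNA gene AT3G06655 was at 10.9, 11.7 and 10.6 CPM in Col-0 and at 0.176, 0.0739 and 0.0652 CPM in the double mutant, close to its mean of 0.12 CPM in dxo1-2. Its log2 fold change was -6.67 (SE 0.371, edgeR adjusted p 1.1e-08), and -7.28 without double mutant replicate 1. PCR1 (AT1G14880), a small membrane protein that lowers cadmium uptake, fell from 86.5, 82.4 and 115.2 CPM to 3.6, 4.22 and 4.55 CPM.

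WRKY30 (AT5G24110), a transcription factor induced in defence and oxidative stress, was at 7.12, 9.32 and 14.2 CPM in Col-0 and at 0.47, 0.48 and 0.678 CPM in the double mutant. PCC1 (AT3G22231), a gene controlled by pathogens and by the clock, was at 8.81, 11.3 and 12.8 CPM against 0.528, 0.69 and 0.561 CPM. Both were more than 10 times lower in every double mutant library than in any Col-0 library, with log2 fold changes of -4.23 and -4.2 (edgeR adjusted p 1.8e-08 and 2e-09). ARD3 (AT2G26400), an acireductone dioxygenase of the methionine cycle, and the MATE efflux gene AT2G04070 had log2 fold changes of -4.37 and -4.75. The remaining gene of the 10, the plastid-encoded ATCG00950, rested on 1 library. It was at 1.06, 26.8 and 1.81 CPM in Col-0 and at 0.305, 0.259 and 0.274 CPM in the double mutant, and its log2 fold change of -5.14 became -2.34 without Col-0 replicate 2 (edgeR adjusted p 0.00531). Of the 10, 7 were lower than in dxo1-2 and 9 lower than in xrn3-8, differences that a choice by low double mutant values favours.

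**Figure D2:**
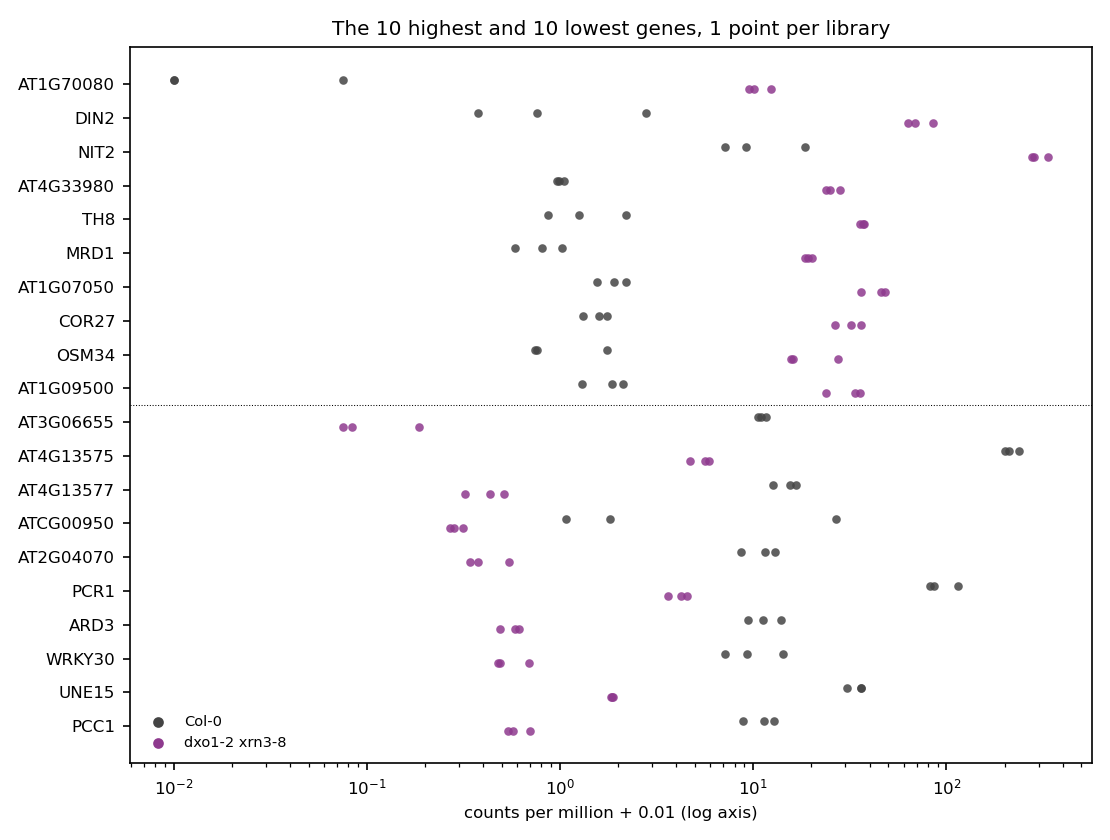
CPM plus 0.01 in each library (horizontal log axis) for the 10 genes that rose most and the 10 that fell most, with Col-0 and double mutant libraries as separate points. The double mutant points of AT1G70080 lie at about 10 CPM where Col-0 is at or near 0, and the Col-0 points of ATCG00950 show replicate 2 at 26.8 CPM apart from the other two.

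Most nuclear photosynthesis genes were lower. The 4 lists of light-harvesting proteins, photosystem subunits, electron transport and ATP synthase proteins, and Calvin cycle enzymes held 72 tested genes, of which 66 were lower, 0 were higher and 30 were at least 2-fold lower than in Col-0, with a median log2 fold change of -0.96. Summed over these genes, the level was 63958.2, 72164.6 and 65429.6 CPM in the Col-0 libraries and 32941.6, 29671.8 and 38007.8 CPM in the double mutant. Every double mutant library thus stood well below every Col-0 library. Against the single mutants, 67 of the 72 genes were lower than in dxo1-2 and 38 lower than in xrn3-8. The median log2 fold changes against Col-0 of the light-harvesting list were -0.2 for dxo1-2, -0.7 for xrn3-8 and -1.1 for the double mutant, and those of the photosystem list were -0.3, -0.63 and -1.09. These 3 comparisons share the Col-0 libraries.

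The light-harvesting proteins bind chlorophyll and pass light energy to the photosystems. Of their 21 tested genes, 19 were lower (90.5%) and the range of log2 fold changes was -1.62 to -0.27. LHCB6, a minor antenna protein of photosystem II, was at 884.2, 1043.3 and 914.9 CPM in Col-0 and at 290.5, 264.6 and 372.1 CPM in the double mutant (log2 fold change -1.62, SE 0.135, edgeR adjusted p 4.2e-07). LHCB1.3, the most abundant member, was at 4095.4, 5098.5 and 4949.9 CPM against 2272.4, 1880.9 and 3079.8 CPM, a log2 difference of -0.97 (SE 0.198, edgeR adjusted p 0.00117). The groups did not overlap for either gene. Its close copies LHCB1.1 and LHCB1.5 did not pass, with log2 fold changes of -0.37 and -0.57 and edgeR adjusted p of 0.0538 and 0.0507, and reads shared by these copies were not counted. LHCB2.2, LHCB2.3 and the photosystem I antenna gene LHCA1 had log2 fold changes of -1.6, -1.6 and -1.48.

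All 23 photosystem subunit genes were lower, with libraries that did not overlap in any of the 23. PSAN, a lumenal subunit of photosystem I where plastocyanin docks, was at 1083.6, 1132.2 and 967.0 CPM in Col-0 and at 380.8, 404.7 and 298.9 CPM in the double mutant. Its log2 fold change was -1.55 (SE 0.115, edgeR adjusted p 1.4e-07), the largest decrease of the list. PSBO1, which stabilises the water-splitting manganese cluster and was the most abundant member, had a log2 fold change of -0.79. PSAH2 and PSAG of photosystem I and PSBW of photosystem II had -1.49, -1.33 and -1.37. Of the 10 electron transport and ATP synthase genes 8 were lower, among them the plastocyanin gene PETE2 (-1.36) and the ATP synthase delta subunit gene ATPD (-1.28).

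Of the 18 Calvin cycle genes 16 were lower. RBCS2B, a small subunit of the CO2-fixing enzyme Rubisco, was at 635.1, 685.5 and 730.3 CPM in Col-0 and at 172.2, 141.2 and 175.5 CPM in the double mutant. It had the largest decrease of the list, with a log2 difference of -2.07 (SE 0.113, edgeR adjusted p 9.7e-09), and was lower than in both single mutants. RBCS1A, the small subunit gene with the highest level, had a log2 fold change of -0.91, and the Rubisco activase gene RCA had -1.17. The small subunit genes are near-identical, so their counts may be short of shared reads. SBPASE, a phosphatase that helps to rebuild the CO2 acceptor, had a log2 fold change of -1.03. Chlorophyll synthesis genes followed, with 14 of 17 lower and a smaller median of -0.49. CAO, which makes chlorophyll b, and the light-dependent reductase gene PORA had log2 fold changes of -1.24 and -1.17, and GUN5, a subunit of magnesium chelatase, had -0.42. GUN4, an activator of that chelatase that is named after its value was seen, was the 1 gene that was higher, by 0.67 (edgeR quasi-likelihood test).

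Regulators of photosynthesis genes moved both ways, with 5 of 18 higher and 8 lower. CGA1 (AT4G26150), a GATA factor known to promote chloroplast development, was at 2.98, 2.42 and 2.49 CPM in Col-0 and at 10, 12.5 and 12.8 CPM in the double mutant. Its 3 double mutant libraries lay above all Col-0 libraries (log2 fold change 2.16, SE 0.146, edgeR adjusted p 6.6e-08). The related GNC and the light-signalling factor HY5 rose by 0.8 and 1.01. SIG2, a sigma factor that guides the plastid RNA polymerase, had a log2 fold change of -0.86. The retrograde signalling gene GUN1 had -0.33. GLK1 and GLK2, activators of light-harvesting genes named after their values were seen, had -0.58 and -0.69.

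**Figure D3:**
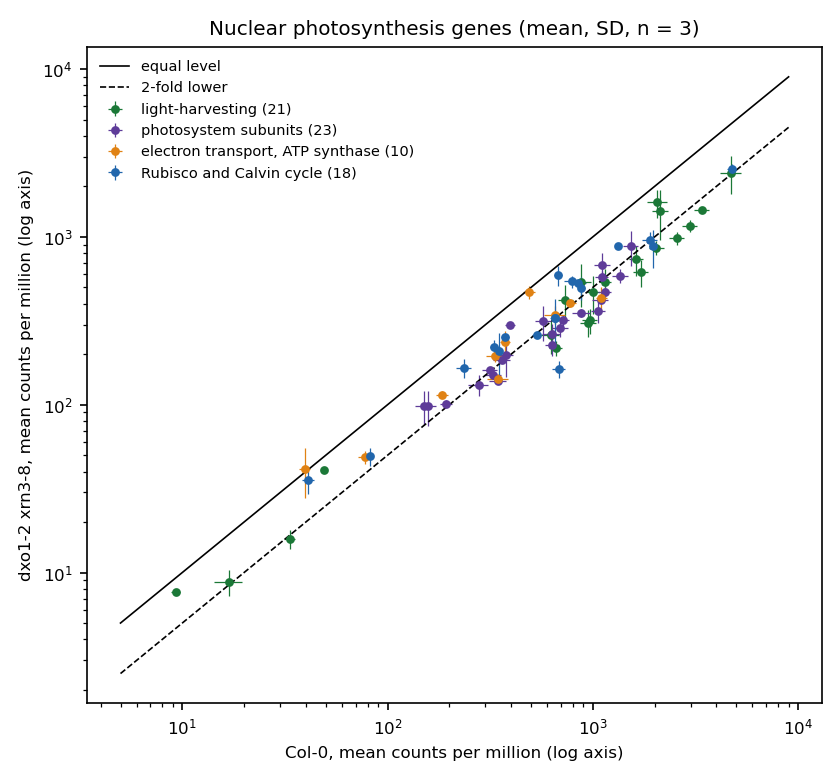
Mean CPM in Col-0 (horizontal log axis) against mean CPM in the double mutant (vertical log axis) for the 72 nuclear photosynthesis genes, 1 point per gene with SD bars (n = 3) and colour by list, with lines for no difference and for 2-fold lower. All but 1 of the points, an electron transport gene just above it, lie below the line of equality, and 30 of the 72 genes were at least 2-fold lower.

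Genes of the plastid genome were lower as well. The share of gene counts on plastid-encoded genes was 51.6, 51.6 and 50.8% in Col-0 and 43.8, 45.9 and 41.3% in the double mutant. The groups did not overlap and the means were 51.3 ± 0.465% (SD, n = 3) and 43.7 ± 2.29% (SD, n = 3), a difference of -7.63 percentage points with a two-sided exact permutation p of 0.1, the smallest that 3 against 3 libraries can give. In the single mutants it was 47.6 to 48.5% in dxo1-2 and 49 to 53.5% in xrn3-8. By gene, 66 of 124 tested plastid-encoded genes were lower and 0 were higher, with a median log2 fold change of -0.5 and quartiles of -0.74 and -0.33, and 3 of the 124 were above 0. The most abundant, ATCG00020, was at 168726.8 ± 5053.2 CPM (SD, n = 3) in Col-0 and 114196.0 ± 4465.4 CPM (SD, n = 3) in the double mutant, with a log2 difference of -0.56 (SE 0.15, edgeR adjusted p 0.00675). The double mutant thus had lower plastid shares and higher TMM factors than Col-0, and whether these are linked was not tested. A fit on nuclear genes alone called 10094 genes. Mitochondrion-encoded genes did not follow, with 17 of 103 higher, 7 lower and a median of 0.12.

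**Figure D4:**
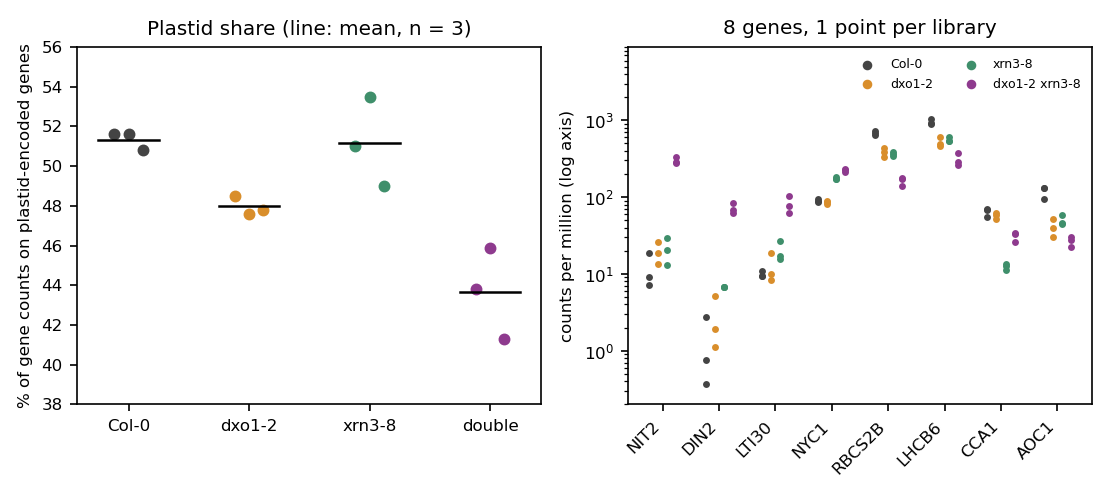
Left, percent of gene counts on plastid-encoded genes in each library of the 4 genotypes, with the mean as a bar. Right, CPM of 8 genes on a log axis, 1 point per library and colour by genotype. The double mutant has the lowest plastid shares, and NIT2 lies at 277.4 to 336.5 CPM in it and at no more than 29.7 CPM in the other libraries, whereas CCA1 is lowest in xrn3-8.

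The circadian clock of plants is a loop of repressors that peak one after another through the day. CCA1 and LHY, which peak at dawn, bind the evening element and hold down genes of the afternoon and evening, while RVE8 and the LNK proteins activate the same genes. In the double mutant most of the morning genes were lower and most of the evening genes higher. As examples of elements more frequent in 1 of the 2 lists, the 250 bases before the annotated start of 2 evening genes and of 2 morning genes are printed. Each of these stretches held such an element. They come from the RefSeq genome TAIR10.1 and are on the strand of the gene from 5′ to 3′. Capitals mark an evening element, AAATATCT or on the other strand AGATATTT, or a G-box, CACGTG, which reads the same on both strands. FKF1 lies at chr1:25508389-25508638 and BOA at chr5:24003638-24003887 on the plus strand, CCA1 at chr2:19245341-19245590 on the plus strand and LHY at chr1:37872-38121 on the minus strand.
FKF1: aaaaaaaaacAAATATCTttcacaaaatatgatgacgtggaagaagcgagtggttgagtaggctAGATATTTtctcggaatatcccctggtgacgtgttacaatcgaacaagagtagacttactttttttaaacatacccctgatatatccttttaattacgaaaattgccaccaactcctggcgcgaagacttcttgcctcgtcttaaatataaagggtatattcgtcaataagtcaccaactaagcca
BOA: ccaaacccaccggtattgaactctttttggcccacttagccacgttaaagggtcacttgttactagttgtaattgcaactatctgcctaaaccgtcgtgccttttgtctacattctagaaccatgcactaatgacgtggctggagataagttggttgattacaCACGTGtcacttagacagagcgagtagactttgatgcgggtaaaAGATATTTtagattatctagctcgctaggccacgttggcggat
CCA1: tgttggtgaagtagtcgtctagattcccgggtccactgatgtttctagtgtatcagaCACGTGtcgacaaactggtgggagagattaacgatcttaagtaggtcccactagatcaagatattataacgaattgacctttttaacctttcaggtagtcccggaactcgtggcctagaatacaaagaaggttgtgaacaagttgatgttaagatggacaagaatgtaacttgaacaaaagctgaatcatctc
LHY: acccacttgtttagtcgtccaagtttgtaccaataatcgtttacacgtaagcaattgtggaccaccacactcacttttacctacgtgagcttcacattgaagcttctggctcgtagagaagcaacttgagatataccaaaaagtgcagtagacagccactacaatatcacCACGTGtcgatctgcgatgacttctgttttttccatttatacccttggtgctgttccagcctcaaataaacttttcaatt
The FKF1 stretch held 2 evening elements, which began 240 and 186 bases before the start, and BOA had 1 at 43 bases beside a G-box at 87. The stretches of CCA1 and LHY held a G-box, at 193 and 80 bases, and no evening element. Other members of the lists varied. The evening gene COR27 had 3 evening elements before the start, whereas COR28 had 0 there and 1 match 32 bases after it. The morning genes RVE8 and LNK2 had 0 G-boxes before the start, with matches 11 and 24 bases after it. The morning gene PRR9 had 2 G-boxes before the start and an evening element 26 bases after it. In windows of 300 bases, from 250 before to 50 after the start, the evening element was found on either strand in 8 of the 11 afternoon and evening genes (72.7%), in 1 of the 11 morning genes (9.09%) and in 6.04% of 20582 tested protein-coding genes. The G-box was found in 9 of the 11 morning genes (81.8%), in 18.2% of the evening genes and in 8.67% of all. These matches describe the letters in the windows, not bound sites, and the evening element was in 7.67% of all genes called higher and in 5.5% of those called lower.

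Of the 11 morning genes, 9 were lower and 1 was higher, with a median log2 fold change of -0.59. The 9 lower genes became 6 without Col-0 replicate 1. CCA1 was at 68.2, 54.4 and 70.3 CPM in Col-0 and at 25.7, 33.7 and 33.1 CPM in the double mutant, a log2 difference of -1.06 (SE 0.121, edgeR adjusted p 7.5e-06). LHY was at 36.3, 30 and 41.9 CPM against 15.1, 24.9 and 25.6 CPM, a log2 difference of -0.72 (SE 0.17, edgeR adjusted p 0.00313). The libraries were apart for both. The xrn3-8 single mutant was lower still, with means of 12.4 CPM for CCA1 and 7.08 CPM for LHY, and the double mutant exceeded it by log2 fold changes of 1.31 and 1.63. In dxo1-2 the means were 57.4 and 29.2 CPM. Over the list, 7 of the 11 genes were higher than in xrn3-8 and 7 were lower than in dxo1-2. The activator gene RVE8 was at 19.2, 14.6 and 23.1 CPM in Col-0 and at 2.81, 3.63 and 4.96 CPM in the double mutant (log2 fold change -2.32, SE 0.223, edgeR adjusted p 1.5e-06), and LNK2 was at 138.6, 142.6 and 168.6 CPM against 45.7, 48.5 and 58.3 CPM (-1.56, SE 0.117, edgeR adjusted p 1.6e-07). The 1 gene of the list that was higher, RVE2, is named after its value was seen, with a log2 fold change of 0.6 (edgeR adjusted p 0.0407). Its call was lost without Col-0 replicate 1 or 2 and without double mutant replicate 1 or 2.

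Of the 11 afternoon and evening genes, 10 were higher, with a median log2 fold change of 2.04. COR28 (AT4G33980) and COR27, repressors that link the clock to cold and light, rose most among those above 5 CPM. COR28 was at 0.982, 1.04 and 0.96 CPM in Col-0 and at 28.1, 25.0 and 23.7 CPM in the double mutant (log2 fold change 4.68, SE 0.234, edgeR adjusted p 4.8e-09), and COR27 was at 1.59, 1.74 and 1.3 CPM against 36.1, 31.9 and 26.5 CPM (4.35, SE 0.327, edgeR adjusted p 1.6e-07). FKF1, a blue light receptor for the timing of flowering, was at 2.42, 2.42 and 1.62 CPM against 28.7, 31.0 and 37.1 CPM (3.9, SE 0.174, edgeR adjusted p 2e-09). All double mutant libraries stood more than 10 times above Col-0 for these genes. BOA, a relative of the evening factor LUX, was at 0.524, 0.51 and 0.231 CPM against 4.64, 3.74 and 2.86 CPM, and GI, a scaffold protein of the evening loop with the highest level in the list, was at 49.2, 49.4 and 40.8 CPM against 78.7, 81.3 and 95.4 CPM. Their log2 fold changes were 3.14 and 0.87 (edgeR adjusted p 3.1e-06 and 7.2e-06). The evening complex gene ELF4, named after its value was seen, went from 5 reads over the Col-0 libraries to 401, a ratio of 59.4 (95% counting interval 25.2 to 184.0). ZTL, known to be regulated mainly as a protein, was the 1 gene that did not pass (-0.21, edgeR adjusted p 0.195). Against xrn3-8, 2 genes of the list were higher, FKF1 and PRR5, and 0 were lower, whereas 9 were higher than in dxo1-2. COR27 had means of 2.61 CPM in dxo1-2 and 35.2 CPM in xrn3-8, and COR28 had 2.71 and 18.7 CPM.

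**Figure D5:**
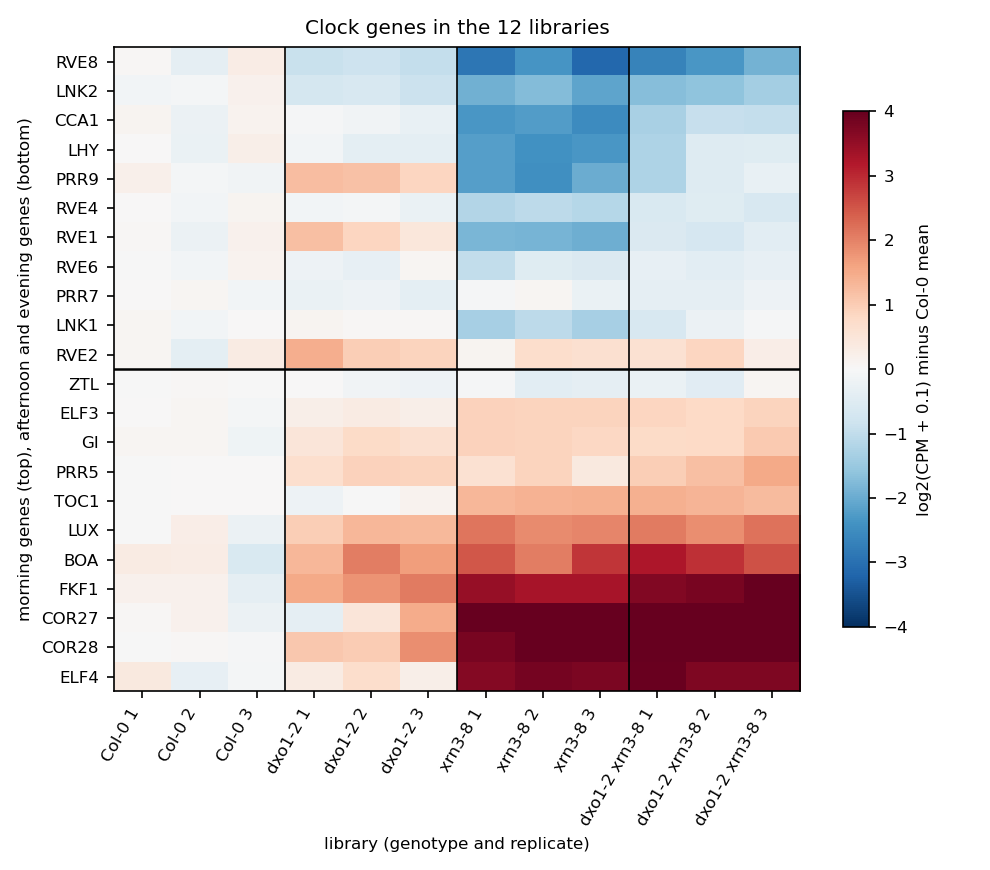
Log2 of the CPM in each library relative to the Col-0 mean for the morning and the afternoon and evening clock genes (1 row per gene), with 1 column per library of the 4 genotypes and a colour scale that ends at 4 in either direction. The morning rows are lowest in xrn3-8 for CCA1 and LHY, and the evening rows other than ZTL are above the Col-0 mean in both xrn3-8 and the double mutant, with COR27 at 26.5 to 36.1 CPM in the double mutant.

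Cold and abscisic acid response genes, which protect cells from frost and drought, were higher in 13 of 16 cases and lower in 0, with a median log2 fold change of 1.31. KIN1 was at 0.54, 1.21 and 1.39 CPM in Col-0 and at 7.54, 12.3 and 12.9 CPM in the double mutant (log2 fold change 3.38, SE 0.337, edgeR adjusted p 2.2e-06). The dehydrin gene LTI30 was at 10.9, 9.35 and 9.5 CPM against 62.9, 76.8 and 103.0 CPM (3.03, SE 0.279, edgeR adjusted p 1e-06). COR15B, which encodes a chloroplast protein that stabilises membranes, was at 50, 55.4 and 35.8 CPM against 238.6, 211.6 and 242.6 CPM (2.29, SE 0.163, edgeR adjusted p 1e-07). The groups were apart for all of these, and LTI30 and COR15B also exceeded both single mutants. CBF3, a transcription factor that switches on cold response genes, had a log2 fold change of 2.48, or 1.89 without double mutant replicate 3. The abscisic acid markers RAB18 and RD29B did not pass, with log2 fold changes of -0.09 and 2.2 and edgeR adjusted p of 0.798 and 0.12. Of the heat shock genes, 2 of 12 tested were higher, and 0 were higher without Col-0 replicate 1. They were HSP70-4 (0.97, edgeR adjusted p 0.0151) and HSP101 (0.47, edgeR adjusted p 0.0331). Both calls were also lost without double mutant replicate 3, and that of HSP101 without Col-0 replicate 3 or double mutant replicate 1 and in the fit of the 6 libraries alone (edgeR adjusted p 0.0802).

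Defence genes of the salicylic acid pathway were mostly lower, 12 of 19 with 1 higher and a median log2 fold change of -0.73. EDS1, a lipase-like hub of immune signalling and the most abundant member, was at 142.2, 150.7 and 145.1 CPM in Col-0 and at 73.8, 74.0 and 68.5 CPM in the double mutant (log2 fold change -1.02, SE 0.0823, edgeR adjusted p 3.2e-07). SARD1, a transcription factor for salicylic acid synthesis, was at 95.4, 81.0 and 77.8 CPM against 25.1, 24.5 and 20.6 CPM (-1.85, SE 0.095, edgeR adjusted p 6.1e-09). The single mutants had lower SARD1 than Col-0 by their means, with 14.5 CPM in dxo1-2 and 52.9 CPM in xrn3-8, so the double mutant lay between them. ALD1, which makes a precursor of the immune signal pipecolic acid, was at 3.06, 1.24 and 3.01 CPM against 0.211, 0.271 and 0.43 CPM, a log2 fold change of -3 (edgeR adjusted p 0.000661). WRKY38 and NIMIN1 had -2.19 and -1.81. The pathogenesis-related genes PR1, PR2 and PR5, named after their values were seen, did not pass, with edgeR adjusted p of 0.184, 0.154 and 0.0681. CYP71A13, an enzyme of camalexin synthesis named after its value was seen, was the 1 gene that was higher (1.21, edgeR adjusted p 0.0149), a call that was lost without Col-0 replicate 2.

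Jasmonate, the hormone of wounding, is made from fatty acids of the chloroplast. Of 15 jasmonate genes, 10 were lower and 0 higher, with a median log2 fold change of -1.01. AOC1 was at 94.6, 132.6 and 130.9 CPM in Col-0 and at 30.1, 22.4 and 27.5 CPM in the double mutant (log2 fold change -2.16, SE 0.19, edgeR adjusted p 6.9e-07), and OPR3 was at 184.9, 236.6 and 253.2 CPM against 57.2, 48.4 and 62.2 CPM (-2.01, SE 0.196, edgeR adjusted p 1.8e-06). No double mutant library came near a Col-0 library. The earlier steps LOX2, AOS and AOC2 had log2 fold changes of -1.5, -1.52 and -1.51. LOX2 had a mean of 290.2 CPM in dxo1-2 and 756.7 CPM in xrn3-8, whereas OPR3 had 134.9 and 65.8 CPM. In the list as a whole, 9 of 15 were lower than in dxo1-2 and 5 lower than in xrn3-8.

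Genes known to respond to sugar starvation and darkness did not move as 1 group, with 2 of 15 higher and 4 lower. Against the rise of DIN2, DIN6 (AT3G47340), an asparagine synthetase used as a marker of sugar starvation, was at 364.3, 431.2 and 501.1 CPM in Col-0 and at 133.4, 68.5 and 69.1 CPM in the double mutant. The groups were apart in the direction opposite to DIN2 (log2 fold change -2.26, SE 0.22, edgeR adjusted p 1.8e-06). DIN1 and AKINBETA1 had log2 fold changes of -0.7 and -0.6. Against dxo1-2, 11 of the 15 genes were higher in the double mutant and 0 were lower. Amino acid breakdown genes were higher in 6 of 15 cases and lower in 3. LKR-SDH, the first enzyme of lysine breakdown, was at 30.9, 17 and 29.1 CPM in Col-0 and at 74.3, 78.7 and 81.1 CPM in the double mutant (log2 fold change 1.6, SE 0.184, edgeR adjusted p 8e-06), above both single mutants. GDH2, D2HGDH and BCAT2 had log2 fold changes of 0.68, 0.82 and 0.7, the last of which did not pass without double mutant replicate 1 (edgeR adjusted p 0.0578). The glutamine synthetase gene GLN1-4 had -1.74.

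Senescence and chlorophyll breakdown genes split, with 9 of 24 higher, 6 lower and 16 higher than in dxo1-2. PES1, which stores phytol freed from chlorophyll as esters, was at 14.0, 13.9 and 15.3 CPM in Col-0 and at 42.0, 43.8 and 49.8 CPM in the double mutant (log2 fold change 1.65, SE 0.098, edgeR adjusted p 1.9e-08). NYE2, a STAY-GREEN protein of chlorophyll breakdown, and SAG13 rose by 1.57 and 1.56. PES1, NYE2 and SAG13 were higher than in both single mutants as well. WRKY53, a regulator of leaf senescence, moved the other way, from 46.6, 58.3 and 58.6 CPM to 17.4, 14.7 and 13.1 CPM (-1.86, SE 0.138, edgeR adjusted p 1.4e-07). SAG21 had -0.5. NYC1, which reduces chlorophyll b and is named after its value was seen, was at 94.9, 86.2 and 90.2 CPM against 234.6, 226.0 and 213.4 CPM. Autophagy genes, which serve to recycle cell contents, were higher in 6 of 30 cases and lower in 5, close to the shares over all genes. The selective receptor gene NBR1 rose by 0.76 and the ATG8 genes ATG8H and ATG8I by 0.91 and 0.75, and ATG18A by 0.67. The 5 lower genes became 3 without Col-0 replicate 3.

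Nitrilase genes beside NIT2 were higher too, NIT1 by 0.65 (edgeR adjusted p 0.000356) and NIT4, which acts on a product of cyanide detoxification, by 1.37 (edgeR adjusted p 5.6e-06), while NIT3 was at 0.49 and did not pass. The aliphatic glucosinolate genes, whose products are sulfur-rich defence compounds, were higher in 8 of 20 cases and lower in 6. The regulator MYB76 rose by 1.12, and CYP79F2, GGP1 and MAM3 had log2 fold changes of -1.02, -0.8 and -0.63. In this list 15 genes were higher than in xrn3-8 and 0 were lower. Sulfur limitation genes were higher in 6 of 16 tested cases and lower in 1, with SDI2 at 1.09 and the sulfate transporter gene SULTR2;1 at 0.26. The calls for the transporter genes SULTR1;2 (0.78, edgeR adjusted p 0.0459) and SULTR4;2 (0.67, edgeR adjusted p 0.0255) were lost when single libraries were left out, that of SULTR1;2 without any 1 of the 6 compared libraries other than Col-0 replicate 1, and that of SULTR4;2 without Col-0 replicate 1 or 3 or double mutant replicate 1 or 3. Both were also lost in a fit of the 6 compared libraries alone (edgeR adjusted p 0.0571 and 0.0523), where 4 genes of the list were higher.

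Flavonoid and anthocyanin genes, which make red and ultraviolet-absorbing pigments, were higher in 12 of 19 tested cases, with 1 lower and a median log2 fold change of 1.2. The glucosyltransferase genes UGT75C1 and UGT78D2 rose by 1.88 and 1.83 (edgeR adjusted p 3.2e-05 and 3.6e-06). UGT78D2 was at 10.4, 8.25 and 11.6 CPM in Col-0 and at 28.5, 31.4 and 47.9 CPM in the double mutant, without overlap. F3PRIMEH, a hydroxylase of the flavonoid ring, and TT19, which carries pigment to the vacuole, rose by 1.78 and 1.64. CHS, the first enzyme of the route, was at 33.6, 30.5 and 39.6 CPM against 43.6, 42.3 and 77.3 CPM. Its log2 fold change of 0.65 (edgeR adjusted p 0.0199) rested on double mutant replicate 3, without which it was 0.31 (edgeR adjusted p 0.137), and it missed the threshold without Col-0 replicate 1 or 2. The regulators PAP1 and PAP2, named after their values were seen, did not pass (0.39 and 0.27, edgeR adjusted p 0.28 and 0.585). MYB113, from the same family and named likewise, was the 1 gene that was lower (-1.6, edgeR adjusted p 0.00107).

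In the list of enzymes for RNA 5′ ends, 3 of 10 genes were higher and 4 lower, and apart from DXO1 the log2 fold changes lay between -0.37 and 0.42. The decapping genes DCP1, DCP2 and VCS rose by 0.42, 0.39 and 0.39, and their edgeR adjusted p were 0.00133, 0.00216 and 0.00401. XRN2 (AT5G42540), the nuclear relative of XRN3, was at 76.7, 70.8 and 73.9 CPM in Col-0 and at 67.0, 63.5 and 56.8 CPM in the double mutant. Its log2 fold change of -0.24 (edgeR adjusted p 0.0127) did not pass without Col-0 replicate 1 (-0.2, edgeR adjusted p 0.0619), and the number of lower genes in the list was 2 without that library. Of 15 exosome and nonsense-mediated decay genes, 7 were higher and 0 lower. The exosome subunit genes RRP4 and RRP41 rose by 0.98 and 0.74, and 4 of the 15 were higher without double mutant replicate 3, where CSL4 (0.45) and RRP45A (0.41) no longer passed. RRP45A also missed the threshold without Col-0 replicate 2.

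Ribosome biogenesis includes the maturation of ribosomal RNA precursors, in which XRN3 is known to take part. Of 33 nucleolar biogenesis genes, 18 were higher (54.5%) and 1 was lower, with a median log2 fold change of 0.29. FIB1, fibrillarin, the methyltransferase of small nucleolar ribonucleoproteins, was at 61.0, 53.4 and 51.8 CPM in Col-0 and at 111.7, 112.1 and 140.0 CPM in the double mutant (log2 fold change 1.13, SE 0.102, edgeR adjusted p 8.6e-07). It lay below its mean of 147.4 CPM in dxo1-2 and above the 47.5 CPM in xrn3-8. NOB1, the nuclease that makes the mature end of 18S rRNA, rose by 0.94 and GAR1 by 1.25, at 1.01 to 1.28 CPM in Col-0 and 2.18 to 3.4 CPM in the double mutant. Nucleolin itself split, with NUC1 at 134.7, 119.8 and 119.7 CPM against 154.0, 162.4 and 149.6 CPM and NUC2 at 7.14, 3.91 and 5.32 CPM against 2.31, 1.88 and 1.98 CPM. Both pairs of groups were apart, with log2 fold changes of 0.32 and -1.4 (edgeR adjusted p 0.00424 and 0.000413). Against xrn3-8, 19 of the 33 genes were higher, and against dxo1-2, 7 were lower and 1 was higher. In the windows around the start, the telo box AAACCCTA was found in 51.5% and the site II element TGGGCC in 69.7% of these genes, against 5.64% and 18.4% of all tested protein-coding genes (both strands). The 2 elements were not particular to this list, with 45.3% and 59.3% in the cytosolic ribosomal protein genes described next. They were in 6.85% and 19.3% of all genes called higher, 3.26% and 15.6% of those called lower and 6.09% and 19.3% of those not called.

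Cytosolic ribosomal protein genes had a median log2 fold change of 0.01, and 18 of 86 tested were higher and 6 lower, shares of 20.9% and 6.98%. RP1, the most abundant, had 0.08 (edgeR adjusted p 0.569). Their median was 0.44 in dxo1-2 and -0.27 in xrn3-8 against Col-0. Set directly against the single mutants, 54 of the 86 were lower than in dxo1-2 and 45 higher than in xrn3-8. The genes AT3G28500, AT3G01170, AT3G06180 and AT1G70600 rose by 1.72, 0.92, 0.91 and 0.74, of which AT3G06180 was not called without Col-0 replicate 3 or double mutant replicate 1 or 3. Nuclear genes for plastid ribosomal proteins were lower in 7 of 17 cases and higher in 3, with RPL4 at -0.71, PRPL28 at -0.62, PRPL11 at -0.54, the most abundant RPS1 at -0.4 and AT5G16200 at 1.67. Among 13 genes for the maturation of chloroplast rRNA, 2 were higher and 3 lower. RNJ, plastid RNase J, was at 21.4, 22.2 and 17.7 CPM in Col-0 and at 39.0, 37.2 and 35.7 CPM in the double mutant, without overlap (log2 fold change 0.87, SE 0.0893, edgeR adjusted p 2.9e-06), and the helicase gene RH39 rose by 0.35. The lower genes RNC3 (-0.37), RAP (-0.27) and RNC4 (-0.23) all missed the threshold without Col-0 replicate 2. RNC3 did so as well without Col-0 replicate 1 or double mutant replicate 1 or 3, and RAP without Col-0 replicate 1 or double mutant replicate 2.

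Cell division genes were higher in 2 of 23 cases and lower in 4. CYCB1;1, a mitotic cyclin also induced by DNA damage, was at 2.16, 2.46 and 1.97 CPM in Col-0 and at 5.48, 5.14 and 5.73 CPM in the double mutant, without overlap (log2 fold change 1.31, SE 0.122, edgeR adjusted p 1.1e-06). The replication helicase genes MCM7 and MCM3 had -0.7 and -0.44, and the cytokinesis gene KNOLLE had -0.48. Against each single mutant 15 of the 23 genes were lower, and 11 were lower than in both. Of all 21974 tested genes, 1059 were lower than in both.

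Markers of flowers and roots were examined as a check of the sampled tissue. The floral identity genes AP1, AP3, PI and AG, named after their values were seen, were at or below 0.569 CPM in every Col-0 library, and 8 of 11 root markers were too low to be tested. The flowering repressor FLC was at 2.13, 2.19 and 2.45 CPM in Col-0 and at 0.164, 0.0616 and 0.235 CPM in the double mutant. The libraries were far apart, with a log2 difference of -3.87 (SE 0.351, edgeR adjusted p 9.1e-07), and the means of the single mutants were 0.283 CPM in dxo1-2 and 4.1 CPM in xrn3-8. SOC1, which FLC is known to repress, had -0.34 (edgeR adjusted p 0.0871), and -0.52 without double mutant replicate 2 (edgeR adjusted p 0.0151). AP1, AP3 and AG were lower and PI was higher in the double mutant, from these low levels. The root-abundant PYK10 gene was at 137.1, 95.5 and 152.5 CPM against 97.0, 74.7 and 77.7 CPM. These ranges overlapped, and the log2 fold change of -0.63 (edgeR adjusted p 0.0239) missed the threshold when Col-0 replicate 1 or 3 or double mutant replicate 2 or 3 was left out. SCR was higher (0.63, edgeR adjusted p 0.0157) and not called without Col-0 replicate 2, and SHR was at 0.26 (edgeR adjusted p 0.286). The part of root tissue in the results above was not tested.

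By gene type, protein-coding genes were called higher and lower in 5113 and 4658 of 20583 cases. Of 252 tested genes annotated as pseudogenes, 86 were higher (34.1%) and 25 lower, and of 485 long noncoding RNA genes 86 were higher (17.7%) and 42 lower. Of 12 spliceosomal snRNA genes 5 were higher and 0 lower, all at mean levels of about 1 CPM or below in both genotypes. For 187 snoRNA genes the numbers were 6 and 3. Under 0.5 CPM in Col-0 were 54 of the 86 higher pseudogenes, 39 of the 86 higher long noncoding RNA genes and the 5 higher snRNA genes. Genes this low in Col-0 can enter the test through the genotypes in which they are high. The higher shares of these 3 types can therefore not be set beside the share over all genes. Genes that were nearly silent in Col-0 were looked at as a class. Of 3046 tested genes with a mean under 0.5 CPM in Col-0, 736 were higher, 150 were lower and 2160 were not called, and 170 of the 736 reached 1 CPM in the double mutant. A gene with no reads in Col-0 could enter the test only through other genotypes, so this count cannot be set beside the share over all genes. Of the 736, 59.5% had their nearest upstream neighbour on the same strand, against 63.4% of the 2160 that were not called. That neighbour was on the same strand and at a mean of 5 CPM or more in the double mutant in 26.2% and 31.3%.

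The 4 genes with the highest fitted change in this class were AT2G26630, ADPG1, AT2G11410 and AT1G70080. AT2G26630 had 0 reads over the Col-0 libraries and 449 over the double mutant, at 1.6, 2.41 and 1.53 CPM, which is at least 110.9-fold higher than a floor of 3 reads over the group. ADPG1 (AT3G57510), a polygalacturonase that loosens cell walls where organs separate and pods open, had 0 reads in Col-0 and 416 in the double mutant, at 1.24, 2.29 and 1.62 CPM, at least 102.7-fold higher by the same floor. Low levels in Col-0 and higher levels in the double mutant were conditions of the choice, so this contrast was fixed in advance. ADPG1 was at 0.0212 CPM in dxo1-2 and 1.09 CPM in xrn3-8 on average, and AT2G26630 at 0.974 and 0.0612 CPM. AT2G11410 had 1 read in Col-0 and 1109 in the double mutant, a ratio of 821.6 (95% counting interval 147.2 to 32478.9). The 1 read lay in Col-0 replicate 2, and the fitted log2 fold change of AT2G11410 went from 9.28 to 11.33 without that library. Its mean was 8.3 CPM in dxo1-2, above the double mutant, and 0.00856 CPM in xrn3-8. These intervals and floors cover counting error only.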

How the data were processed

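The authors deposited 1 file per library, with whole-number counts of reads for 37184 genes, not normalised, followed by summary lines for reads not assigned to a gene, which were left out. Per the submitters' processing notes, HISAT2 2.0.4, SAMtools 1.1 and HTSeq 0.6.0 and the build TAIR10 were used; their settings and the use of strand are not given in the sources used here. Reads that fit several places were kept apart from the gene counts, so near-identical genes can be undercounted. Names, gene types, strands and upstream sequences came from RefSeq's TAIR10.1, which matched 36899 identifiers; the 133 plastid and 152 mitochondrial identifiers were recognised by their prefix and are not named.

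Counts were tested in R 4.3.3 with edgeR 4.0.16 (TMM, filterByExpr at min.count 10 and min.total.count 15, quasi-likelihood F-test) in 1 fit of all 12 libraries with a coefficient per genotype, 8 residual degrees of freedom and a biological coefficient of variation of 12.7%. P-values were adjusted by Benjamini-Hochberg over 21974 genes, a gene was called at an adjusted p under 0.05, and the SE is the ratio of the absolute log2 fold change to the root of F. On simulated counts of 20975 genes, of which 200 were changed by 1.5 on the log2 scale, the test recovered 99.5% and 6.57% of its calls were false. The simulation changed genes up and down in equal number and left the single mutants equal to Col-0. In the data 46.4% of tested genes were called, mostly with smaller changes, so these rates do not carry over to the calls reported here. Pairs of libraries of 1 genotype differed by a chi-square of 15.1 or more per degree of freedom, so none was taken for 1 library deposited more than once. Where nothing says that libraries came from separate plants beyond the design text's word biological, p-values measure the spread between these libraries. Ratios of low counts carry exact 95% binomial intervals, and the floor for 0 reads is 3 reads over a group.

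The comparison, the gene lists and the tests were chosen with earlier results of these data known. Named genes are DXO1 and XRN3, the 10 that rose and the 10 that fell most among called genes with a mean of at least 5 CPM over the 6 libraries and no overlap between the genotypes, in each list the most abundant member in Col-0 and the 4 called members with the largest absolute change at 1 CPM or more, and the 4 highest of the class low in Col-0 with at least 1 CPM in the double mutant. Many genes named beyond this are marked as named after their values were seen. Others are not marked, among them ZTL, PRR5, RAB18, RD29B, LHCB1.1, LHCB1.5, NIT3 and SHR. Alternatives were DESeq2 1.42.0, other scalings and filters, stricter thresholds, the 6 libraries alone, nuclear genes alone, a replicate block, and leaving out each library.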

Additional observations from a re-analysis of the deposited data

How the results depend on the processing

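The number of genes called against Col-0 was 10188 and lay between 9431 and 10606 under DESeq2, other scalings, other filters on low counts, nuclear genes alone and the 6 libraries alone. It was 7244 at an adjusted p under 0.01, and 8692 to 9320 when 1 library of either genotype was left out. With a limit of 2-fold it was 3102, with 1802 higher and 1300 lower. Against dxo1-2 the limit of 2-fold gave 1583 genes (1004 higher, 579 lower) and an adjusted p under 0.01 gave 4226 (2194 higher, 2032 lower). Against xrn3-8 the limit of 2-fold gave 2670 (1412 higher, 1258 lower), and 2952 genes were lower at an adjusted p under 0.01. The difference in plastid share ran from -8.75 to -6.46 percentage points when 1 library was left out and was -8.05 over a total that left out mitochondrial counts and those of the 10 nuclear genes with the highest counts. The cause of these shifts was not tested beyond the stricter thresholds themselves.

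The replicate numbers did not pair the libraries: deviations of same-numbered Col-0 and double mutant libraries correlated at -0.0653, -0.0275 and 0.0192. A fit with the replicate block called 9874 genes, 5197 higher and 4677 lower. Under the block, SULTR1;2 (edgeR adjusted p 0.0502), HSP101 (0.0512) and RVE2 were not called and SOC1 was (0.0483).

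Of 2085 alternative values for the 149 genes named by the rule, 2038 kept their direction and their side of the threshold. Genes named beyond the rule, such as RVE2, are not in this count. The log2 fold change of RP1 ran from -0.04 without double mutant replicate 3 (edgeR adjusted p 0.796) to 0.17, and so changed sign. The 4 lower floral genes were 1 at a mean count of at least 50, and the 6 lower cytosolic ribosomal protein genes were 3 without a filter and 8 with DESeq2. Levels under about 1 CPM rest on few reads.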
